A study of Mus musculus with 2 samples.

Results

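The genes described are the MAP kinases and the kinases above them, chosen by name: every non-control spot whose gene name was Mapk, Map2k, Map3k or Map4k followed by a number. The pattern took 40 of the 34797 gene names on the array, read by 69 probes of 60 bases on 87 spots, with 13 Mapk, 7 Map2k, 15 Map3k and 5 Map4k genes. RNA came from cells labelled GT1-7, the name of an immortalised mouse line of hypothalamic neurons known to make gonadotropin-releasing hormone (GnRH), grown in medium with serum. The GnRH group (1 array) had 50 nM GnRH for 30 min and the vehicle group (1 array) had DMSO for 30 min. A free-text label of both samples instead names bradykinin and the A549 line; the groups here follow the treatment labels. Some marker genes described further on also go against the name GT1-7. Gnrh1, the hormone's own gene, was above background in neither array, and the gonadotrope genes Cga, Nr5a1 and Pitx1 were bright. Among gonadotrope genes, however, Lhb was dim and Fshb was above background in neither array, so the cells are called by their label only. No label gives a genotype or names a second culture.

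MAP kinases work as a relay. MAP4 kinases and small GTPases switch on MAP3 kinases, these phosphorylate MAP2 kinases, and these phosphorylate the MAP kinases ERK, JNK and p38, which then act on transcription factors and further kinases. The GnRH receptor, coupled to G proteins of the Gq class, is known to engage ERK, JNK and p38 in pituitary gonadotropes. The relay is driven by phosphorylation, which an RNA array does not read; what follows concerns the levels of the kinases' transcripts.

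The comparison asked which of these transcripts differed after 30 min of GnRH. All values describe these 2 arrays: each group holds 1 array, so no difference has a replicate check or a test, and precision is limited by how few arrays there are. In RNA of a whole culture, fewer cells of a type and less RNA per cell cannot be told apart. Signals are given after both arrays were scaled to the same 75th percentile, in arbitrary units, and belong to the gene's brightest measured probe. A signal depends on its probe, so differences are taken between arrays and not between genes. Where genes are called bright or dim, as in the check of marker genes, the comparison is rough for that reason. The ± value is the scanner software's error of a log2 difference (GnRH minus vehicle), a technical error that for bright probes mostly reflects a preset multiplicative error of 0.1.

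Early response genes differed widely between the same arrays. Fos, an AP-1 subunit gene known to be switched on through ERK, had a scaled signal of 6949 in the GnRH array and 109.8 in the vehicle array. Egr1, another early target of ERK, stood at 25174 in the GnRH array and 71.1 in the vehicle array. The receptor gene Gnrhr had 14112 in the GnRH array and 14381 in the vehicle array (log2 difference -0.03 ± 0.20). The label was checked against markers, with a gene counted as measured where a probe was well above background in both arrays. Of 5 GnRH neuron markers on the array 2 were measured (summed signal 150.7 in the GnRH array and 172 in the vehicle array), and Gnrh1, Six6 and Nhlh2 passed that limit in neither. Of 6 gonadotrope markers 5 were measured, with a summed signal of 161035 in the GnRH array and 171338 in the vehicle array. Fshb was not measured, and Lhb was dim, with 74.5 in the GnRH array and 69.2 in the vehicle array. Cga, the glycoprotein hormone alpha subunit, had 71802 in the GnRH array and 77906 in the vehicle array. Nr5a1, which encodes the factor SF-1, had 29570.2 in the GnRH array and 32332 in the vehicle array, and Pitx1, a pituitary homeobox gene, 45471 in the GnRH array and 46646 in the vehicle array. Gnrh1, Cga, Nr5a1 and Pitx1 thus go against the label of a GnRH neuron line, while the dim Lhb and the unmeasured Fshb add nothing to this. Measured too were 4 of 5 markers of microglia and macrophages, 2 of 4 of astrocytes, 3 of 6 of fibroblasts and endothelium and 0 of 4 of epithelium. The microglia and macrophage list summed to 6621 in the GnRH array and 6742 in the vehicle array. In the same order, astrocyte markers summed to 717 and 757, fibroblast and endothelial markers to 1542 and 1640, and epithelial markers to 19.3 and 16.1. Over all gene names 60.7% were measured, so the counts of measured markers do not by themselves name a cell type. No other cell type name is given to the cells. Both arrays lay on 1 slide, and 56.9% of non-control spots in the GnRH array and 55.2% in the vehicle array were well above background.

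Nearly the whole relay was detected. Of the 40 genes, 39 had a probe well above background on both arrays (97.5%), against 60.7% of all gene names and 69.3% of those with a RefSeq mRNA accession. By tier these were 12 of 13 Mapk, 7 of 7 Map2k, 15 of 15 Map3k and 5 of 5 Map4k genes. The exception was Mapk15, an atypical ERK, at 15.7 in the GnRH array, where it was well above background, and 15.5 in the vehicle array, where it was not; no fold is given for it. The module's markers were all measured: Mapk3, Map2k1, Mapk8 and Mapk14.

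**Figure D1:**
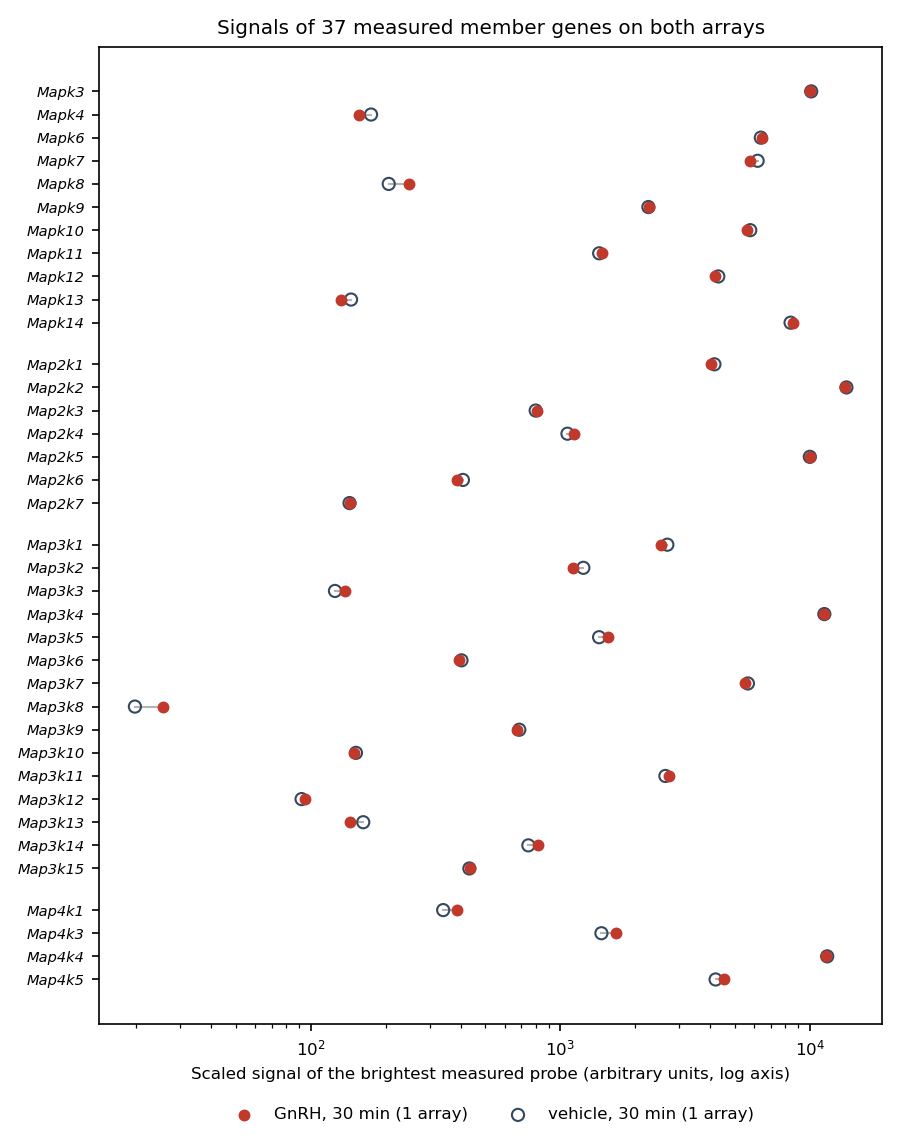
Scaled signal (arbitrary units, log axis) of the brightest measured probe of 37 member genes, with filled points for the GnRH array and open circles for the vehicle array (1 array each), grouped by tier. The 2 points of a gene lie close together or overlap, and the widest gap is that of Map3k8 (25.7 in the GnRH array and 19.7 in the vehicle array).

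No kinase of the relay differed 1.5-fold. At 2-fold, 0 of 39 measured members were higher and 0 lower in the GnRH array, beside 0.308% and 0.133% of all 21105 measured genes. At 1.5-fold the members gave 0 higher and 0 lower, beside 1.19% and 0.872% of all genes. At these shares a set of 39 genes holds less than 1 call in either direction, so the zeros are near the background and are not a result about the kinases. The members' log2 differences ran from -0.17 (Map3k13) to 0.38 (Map3k8), with a median of -0.01, which is also the median of all measured genes (-0.01). Above 0 were 19 members and below 0 were 20; over all genes 47.5% lay above 0. The sign of some member values changed with the scaling, the background correction or the choice of probe, among them Mapk4 (-0.15, and 0.02 as a mean over its probes) and Map3k14 (0.13, and -0.03 as such a mean).

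The differences were mostly smaller than the scanner error. That error was matched or exceeded by Mapk8 and Map3k3 alone, so 37 of 39 members lay within it, beside 85.9% of all genes. Within 2 errors lay 38 members, all but Map3k3, beside 97.3% of all genes. For bright probes the error is mostly preset, and it is wide beside the median spot SD of 0.05 over probes printed 10 times. A difference inside it therefore does not show that the signals of both arrays were equal. The error of Map3k3 was smaller, 0.07 beside a member median of 0.20, because it was combined over 10 spots taken as independent. Its difference of 0.14 was itself smaller than those of Mapk8 (0.27) and Map3k8 (0.38). Within 0.2 of 0 lay 25 of 25 members whose signal was at or above the median of the measured genes, where 96.1% of all genes did so. Below that median it was 12 of 14 members, beside 68.7% of all genes; the others were Mapk8 and Map3k8. The median size of a difference was 0.05 over the members and 0.07 over all genes.

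**Figure D2:**
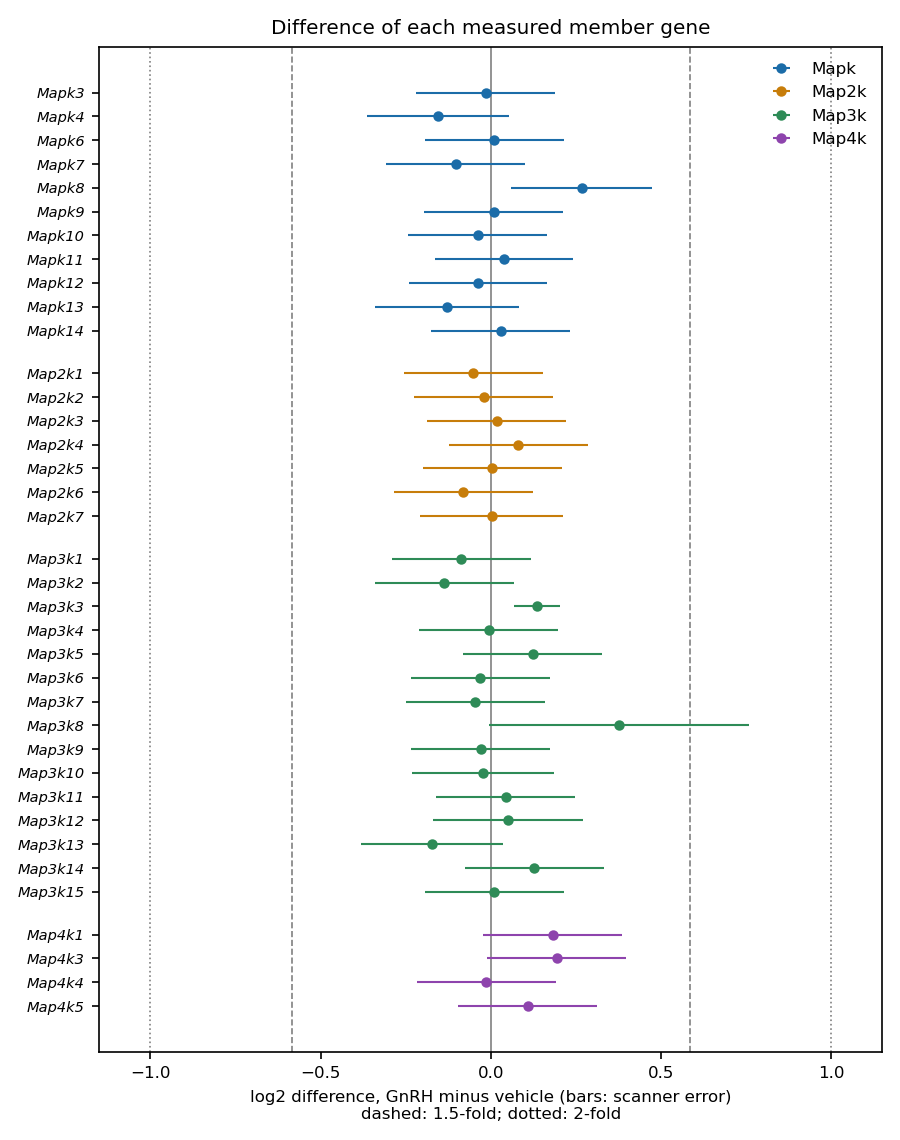
Log2 difference (GnRH minus vehicle) of 37 measured member genes, with bars for the scanner error and colours for the tiers; dashed lines mark 1.5-fold and dotted lines 2-fold. All points lie between -0.17 and 0.38, inside the dashed lines.

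The ERK genes come first among the MAP kinases. Mapk3, which encodes ERK1, had a scaled signal of 10044 in the GnRH array and 10147 in the vehicle array (log2 difference -0.01 ± 0.20). Its second probe read 3848 in the GnRH array and 4058 in the vehicle array (-0.08 ± 0.20). Mapk7, which encodes ERK5, a MAP kinase with a long C-terminal tail, had 5763 in the GnRH array and 6189 in the vehicle array (-0.10 ± 0.20). For both ERK1 and ERK5 the gene value lay below 0 and inside its error.

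Among the JNK genes only Mapk8 passed its scanner error. Mapk8, which encodes JNK1, had 247 in the GnRH array and 206 in the vehicle array (log2 difference 0.27 ± 0.21), a ratio of 1.20. Its second measured probe read 78.1 in the GnRH array and 71.0 in the vehicle array (0.14 ± 0.23), and a dim one, not measured on either array, 13.6 in the GnRH array and 11.3 in the vehicle array. Both measured probes stood higher in the GnRH array, by 0.27 and 0.14 on the log2 scale against errors of 0.21 and 0.23. The dim probe is not counted, and over all genes with several measured probes 49.1% had probes that shared a sign. Mapk9, which encodes JNK2, had 2272 in the GnRH array and 2258 in the vehicle array (0.01 ± 0.20), with its second probe at -0.16 ± 0.21. Mapk10, which encodes JNK3, the form known from neurons, had 5631 in the GnRH array and 5783 in the vehicle array (-0.04 ± 0.20), with its second probe at 0.14 ± 0.21. The probes of Mapk9 and of Mapk10 thus fell on both sides of 0.

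The p38 genes stayed within 0.13 of 0. Mapk14, which encodes p38 alpha, had 8565 in the GnRH array and 8388 in the vehicle array (log2 difference 0.03 ± 0.20). A second Mapk14 probe is listed for 3 RefSeq transcripts, against 4 for the first; it read 131.6 in the GnRH array and 132.0 in the vehicle array (0.00 ± 0.21). Mapk11, p38 beta, had 1473 in the GnRH array and 1434 in the vehicle array (0.04 ± 0.20). Mapk12, p38 gamma, had 4195 in the GnRH array and 4305 in the vehicle array (-0.04 ± 0.20). Mapk13, p38 delta, was the lowest of the p38 differences, with 133 in the GnRH array and 145 in the vehicle array (-0.13 ± 0.21).

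The atypical MAP kinases lack the usual MAP2 kinase input. Mapk6, which encodes ERK3, had 6421 in the GnRH array and 6375 in the vehicle array (log2 difference 0.01 ± 0.20). Mapk4, which encodes ERK4, had 157 in the GnRH array and 175 in the vehicle array (-0.15 ± 0.21), while its dimmer probe gave 0.19 ± 0.34. The Mapk4 probes differed by 0.35, the widest gap between probes of one member, and the error of such a gap was 0.40. The Mapk tier had a median of -0.02, with 5 genes above 0 and 7 below.

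Probes taken as coding sequence are shown for a member of each main branch, because a value above is that of such a stretch of transcript. Each is the gene's second probe. They are the scanner files' designed probes, 5′ to 3′, in lower case, each with at least 1 reading frame without a stop codon. Coordinates follow build mm9, taken from the scanner files, and exons are not assigned because no annotation of that build was used. The capitals in the Map2k2 probe mark the 9 bases that encode the conserved start of the activation segment, the stretch that upstream kinases phosphorylate.
Mapk3 (ERK1), chr7:133908255-133908314, + strand: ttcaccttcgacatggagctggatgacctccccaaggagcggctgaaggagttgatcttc
Mapk8 (JNK1), chr14:34200386-34200445, - strand: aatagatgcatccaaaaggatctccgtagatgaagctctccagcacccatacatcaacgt
Mapk10 (JNK3), chr5:103355103-103355162, - strand: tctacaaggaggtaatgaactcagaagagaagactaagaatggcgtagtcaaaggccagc
Mapk14 (p38 alpha), chr17:28873965-28874024, + strand: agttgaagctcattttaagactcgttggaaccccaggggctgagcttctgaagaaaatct
Map2k2 (MEK2), chr10:80582043-80582102, + strand: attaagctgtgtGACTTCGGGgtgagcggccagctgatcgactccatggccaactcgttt
The log2 differences of these probes were -0.08 for Mapk3, 0.14 for Mapk8, 0.14 for Mapk10, 0.00 for Mapk14 and 0.02 for Map2k2.

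The MAP2 kinase tier held the narrowest range, from -0.08 to 0.08 on the log2 scale over 7 genes, with a median of 0.00. Map2k1, which encodes the ERK kinase MEK1, had 4011 in the GnRH array and 4154 in the vehicle array (log2 difference -0.05 ± 0.20). Map2k2, which encodes MEK2, had 13845 in the GnRH array and 14047 in the vehicle array (-0.02 ± 0.20). Its activation-segment probe read 13012 in the GnRH array and 12848 in the vehicle array (0.02 ± 0.20). For both ERK kinases the difference thus lay inside the scanner error.

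The kinases that act on p38 and JNK also lay within their errors. Map2k3 (MKK3) had 808 in the GnRH array and 798 in the vehicle array (0.02 ± 0.20). Map2k6 (MKK6) had 386 in the GnRH array and 408 in the vehicle array (-0.08 ± 0.20). Of the JNK kinases, Map2k4 (MKK4) had 1132 in the GnRH array and 1070.0 in the vehicle array (0.08 ± 0.20), with its second probe at -0.12 ± 0.20. Map2k7 (MKK7) had 143 in both arrays (0.00 ± 0.21). Map2k5, which encodes the ERK5 kinase MEK5, had 10055 in the GnRH array and 10021 in the vehicle array (0.00 ± 0.20).

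The MAP3 kinases, the tier with the most genes (15), gave the widest range, from -0.17 to 0.38, with a median of -0.01. Of these genes 7 lay above 0 and 8 below. The upper end was that of Map3k8 alone, and the next highest value was 0.14 for Map3k3, while the Mapk tier reached 0.27. Map3k8, which encodes TPL2, a kinase that feeds ERK in inflammatory signalling, had 25.7 in the GnRH array and 19.7 in the vehicle array (log2 difference 0.38 ± 0.38), a ratio of 1.30. It was the dimmest measured member, was read by a single spot per array, and its difference equalled the scanner error to 2 decimals. Without background correction the Map3k8 difference was 0.16, and with a model-based correction (normexp) it was 0.17. The largest negative value was that of Map3k13, the leucine zipper kinase LZK, with 144 in the GnRH array and 162 in the vehicle array (-0.17 ± 0.21).

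Map3k3 had a probe printed 10 times, so its spots give a spread measured on these arrays. Map3k3, which encodes MEKK3, a kinase of the MEK5 branch, ran from 118 to 150.5 over its spots in the GnRH array and from 114 to 136 in the vehicle array (log2 difference 0.14 ± 0.07). The difference of single spots ranged from -0.12 to 0.40 (SD 0.14), with 8 of 10 spots above 0, so the spots of both arrays overlapped. Among 262 probes printed 10 times whose kept spots were all well above background, 17 (6.49%) had a mean difference above that of Map3k3. The median spot SD over these probes was 0.05, so the spread of Map3k3 was wider than that of most of them. All kept spots stood higher in the GnRH array for 25 of these probes (9.54%), a set that does not hold Map3k3. These spots are repeats within 1 hybridisation and say nothing of variation between cultures.

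**Figure D3:**
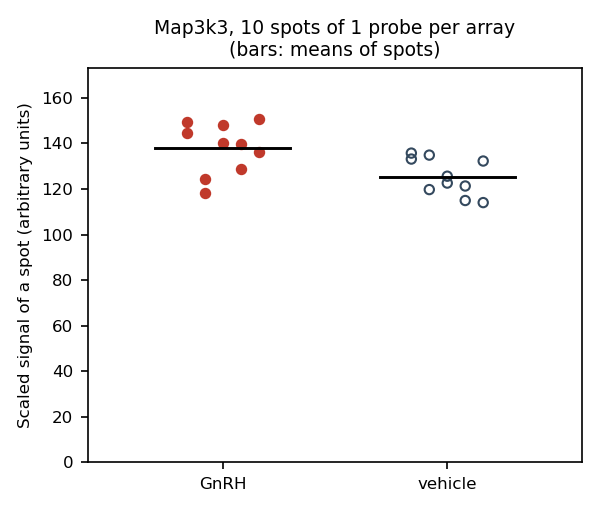
Scaled signal (arbitrary units) of each of 10 spots per array of the repeated probe of Map3k3, GnRH array left and vehicle array right, with bars for the mean of the spots. The spots span 118 to 150.5 in the GnRH array and 114 to 136 in the vehicle array, so the ranges overlap.

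Other MAP3 kinases known for stress and cytokine signals had differences of 0.12 to 0.14 in size, each inside its scanner error. Map3k14, which encodes the NF-kB-inducing kinase NIK, had 815 in the GnRH array and 746 in the vehicle array (log2 difference 0.13 ± 0.20), but its second probe gave -0.19 ± 0.27. Map3k5, which encodes the oxidative stress kinase ASK1, had 1560.2 in the GnRH array and 1433 in the vehicle array (0.12 ± 0.20), with its second probe at -0.06 ± 0.22. Map3k2, which encodes MEKK2, had 1128 in the GnRH array and 1239 in the vehicle array (-0.14 ± 0.20), with its second probe at 0.00 ± 0.22. In each of these the other probe lay nearer to 0 or beyond it.

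The remaining MAP3 kinases were Map3k1 (MEKK1), Map3k4 (MEKK4), Map3k6 (ASK2), Map3k7 (TAK1), Map3k9, Map3k10 and Map3k11 (mixed lineage kinases), Map3k12 (DLK) and Map3k15 (ASK3), with differences from -0.09 for Map3k1 to 0.05 for Map3k12. Map3k7, the kinase through which TGF-beta and interleukin receptors reach JNK and p38, had 5485 in the GnRH array and 5659 in the vehicle array (-0.05 ± 0.20). The probes of Map3k1 share 55 of their 60 bases and nevertheless gave -0.09 and 0.03, each ± 0.20. That gap of 0.11 between nearly identical probes exceeds the median size of a member's difference (0.05).

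The MAP4 kinases, of the Ste20 family, were the tier with the highest median, 0.11 over 5 genes, with 3 above 0 and 2 below. Map4k3, which encodes GLK, a kinase linked to nutrient sensing, had 1675 in the GnRH array and 1464 in the vehicle array (log2 difference 0.19 ± 0.20). Map4k1, which encodes HPK1, best known from blood cells, had 386 in the GnRH array and 339.8 in the vehicle array (0.18 ± 0.21). Map4k5 had 4528 in the GnRH array and 4199 in the vehicle array (0.11 ± 0.20). Each of these was read by 1 probe and lay inside its scanner error. Map4k4, which encodes HGK, had 11655 in the GnRH array and 11762 in the vehicle array (-0.01 ± 0.20). No test of the difference between tiers was possible.

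Probes of the same gene gave a second measure of the error. More than 1 probe was measured for 20 members, and the gap between a member's lowest and highest probe had a median of 0.13, as it did over all 5977 genes with several probes (0.13). Probes of a gene all shared a sign in 7 of the 20 members, beside 49.1% of all such genes. Both probes lay above 0 for Mapk8 and Map2k5, and all lay below 0 for 5 members, among them Mapk3, Map3k6, Map3k10 and Map4k4. Over all 63 measured probes of members the differences ran from -0.19 to 0.38.

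**Figure D4:**
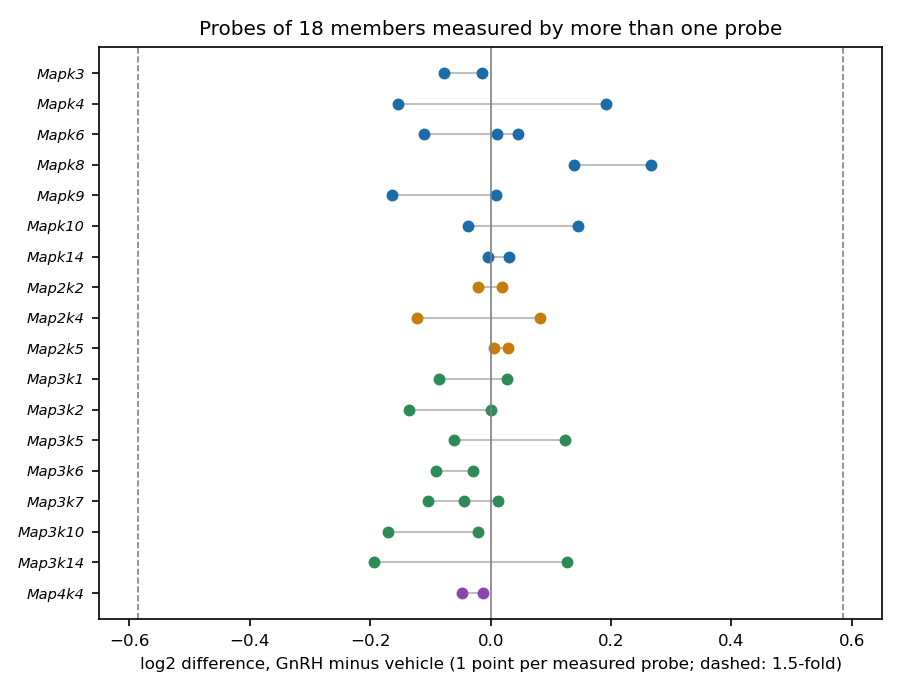
Log2 difference (GnRH minus vehicle) of every measured probe of 18 members with more than 1, with 1 point per probe and a grey line joining probes of a gene; dashed lines mark 1.5-fold. The probes of most genes straddle 0, and the widest gap is that of Mapk4 (0.35).

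The members' promoters were searched for motifs of factors that MAP kinases act on, in RefSeq windows of build GRCm38.p6 that run from 250 bases before to 50 after each listed start. Windows were held for 32 of the 40 genes. Both strands were searched for the CRE of CREB (TGACGTCA), the AP-1 site (TGANTCA), an EGR site (GCGTGGGCG) and the CArG box of serum response factor; the CRE letters hold no AP-1 match. The CRE was found for 1 of 32 members (3.12%), beside 2.03% of 27025 genes, and the AP-1 site for 3 (9.38%), beside 8.97%. The CArG box and the EGR site were found for 0 of 32 members, beside 1.81% and 0.707% of genes. The matches are shown with the motif in capitals on the gene's strand, because they are the members' only matches.
Mapk10, CRE, chr5:103211345-103211374, - strand: tctctgggcttTGACGTCAtgtgtgctcct
Map2k6, AP-1, chr11:110398859-110398887, + strand: ctctaagctgtTGATTCAggggtttttct
Map2k7, AP-1, chr8:4240002-4240030, + strand: tctgtccctctTGATTCAgcagaatgtct
Map3k10, AP-1, chr7:27674782-27674810, - strand: ccttggctaaaTGAGTCAgttaccgtgaa
The gene values beside them were -0.04 for Mapk10, -0.08 for Map2k6, 0.00 for Map2k7 and -0.02 for Map3k10. A match is a description of these letters and not a site.

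Other genes of the pathway were described as lists, with 0.308% of all genes at least 2-fold higher and 0.133% lower as the background. Above the relay, RAS with its exchange factors, adaptors and GTPase activators had 16 of 18 genes measured, none past 2-fold in either direction, and a median log2 difference of -0.01. The largest were Rasgrp2 (-0.52 ± 0.39, signals of 19.6 in the GnRH array and 28.1 in the vehicle array), Sos1 (-0.20 ± 0.29) and Nf1 (-0.14 ± 0.20). The Rasgrp2 value was -0.05 with normexp and -0.04 without background correction, where that of Sos1 turned to 0.03. RAF and related kinases outside the name pattern had 9 of 11 genes measured, none past 2-fold, and a median of 0.04. The ERK-branch MAP3 kinases Araf (0.02) and Braf (-0.02) were each ± 0.20. The largest differences were those of Mink1 (-0.21 ± 0.20, just past its scanner error), Taok3 (0.12 ± 0.20) and Taok2 (0.08 ± 0.20).

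Beside and below the relay the scaffold and kinase transcripts also stayed within 2-fold. Scaffolds and adaptors had 15 of 15 genes measured, none past 2-fold, and a median of 0.01; the largest were Ksr2 (0.16), Ksr1 (0.14), both scaffolds of RAF and MEK, and Arrb2 (0.12). Kinases activated by MAP kinases had 11 of 11 measured, none past 2-fold, and a median of -0.01, led by the translation factor kinase gene Mknk1 (-0.16), Rps6ka6 (0.14) and Rps6ka4 (-0.09). Transcription factors phosphorylated by MAP kinases had 18 of 19 measured, 2 at least 2-fold higher, none 2-fold lower and a median of 0.06. Those 2 were Fos (5.98 ± 0.07) and the AP-1 gene Jun (1.93 ± 0.20), followed by Ddit3 (0.53 ± 0.20).

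The dual-specificity phosphatases, which remove the phosphates that activate MAP kinases, were the pathway list with the largest shift. Of 11 genes 10 were measured, 3 were at least 2-fold higher, none was 2-fold lower, and the median was 0.78. At least 1.5-fold higher were 7, beside 1.19% of all genes. Dusp5 had 497 in the GnRH array and 74.3 in the vehicle array (2.74 ± 0.22). Dusp6, which acts on ERK, had 1190.3 in the GnRH array and 315 in the vehicle array (1.92 ± 0.20). Dusp1 had 1321 in the GnRH array and 382 in the vehicle array (1.79 ± 0.20), and its spot lay in an area of the array where neighbouring spots differed together. No member spot lay in such an area, and the spots around member spots had median differences of -0.14 to 0.13. The factor and phosphatase genes were listed with earlier results of these arrays known, so their counts are not independent evidence.

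**Figure D5:**
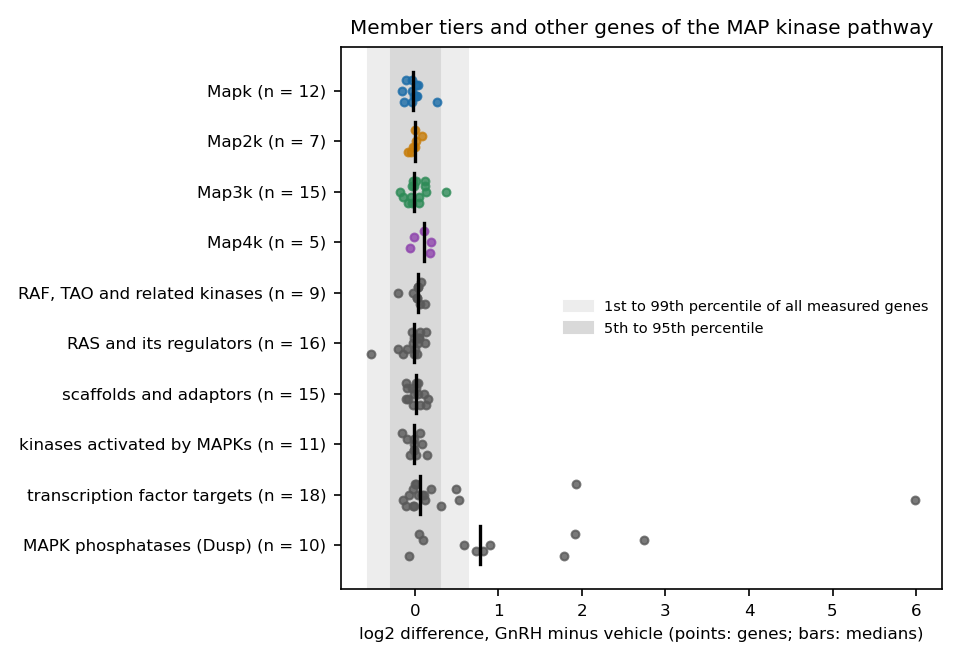
Log2 difference (GnRH minus vehicle) of each measured gene in the 4 member tiers (coloured) and 6 other lists of the pathway (grey), with bars for medians; the shaded bands hold the central ranges of all 21105 measured genes, from the 5th to the 95th percentile (-0.28 to 0.30) and from the 1st to the 99th (-0.56 to 0.63). All kinase points of the 4 tiers lie inside the wider band, while Fos, Jun and several phosphatase genes lie to the right of it.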

How the data were processed

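Amplified, Cy3-labelled cRNA was read on Agilent mouse arrays in 1 colour, per the labels' protocols. The deposited scanner files hold the linear intensity of each spot, background-subtracted and detrended within each array by Feature Extraction 10.7.1.1, per the file headers. Version 9.5.1.1 is given by the submitters' processing notes. The authors' deposited value table also holds linear intensity, with a median of 28.4 in both columns; over 29665 probes its log2 differences correlated with those of the scanner values at r = 0.998, which settles scale and direction, and how it was normalized is unknown here.

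Control spots and spots marked as outliers (94 in the GnRH array and 121 in the vehicle array, no member spot) were left out. Log2 processed signals were averaged per probe and each array's 75th percentile (541 in the GnRH array and 578 in the vehicle array) was subtracted. A probe was measured when at least 50% of its spots were well above background on both arrays, and a gene took its brightest measured probe. Genes kept the files' names; 63 of 69 member probes had an accession in a RefSeq table (GRCm38.p6), none with another symbol. Scanner errors were combined over both arrays with spots taken as independent. No test was made with 1 array per group; genes were counted at 2-fold and 1.5-fold.

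Members of the Mapk and Map2k tiers were named with values, as were Map3k and Map4k members with differences of at least 0.3 and up to 4 more per tier, up to 3 genes of each other list, and Araf, Braf, Fos, Dusp1, Dusp6, Gnrhr and Egr1. Some genes that the rule takes are counted in the totals but not reported here by name. Values of Map3k1, Map3k5, Map3k7 and Map4k4 were added after they were seen. The members and lists were chosen with earlier results of these data known. The search for areas took the median difference of spots within 2 rows and columns, a limit of 0.3 and at least 4 connected spots, widened by 2 spots, which gave 3 areas with 611 non-control spots. Alternatives changed the scaling, background correction (normexp in limma 3.58.1 under R 4.3.3, offset 50), source, filter, probe rule, outliers, areas and names. The steps were tested on simulated data, with both arrays built from the vehicle signals, known folds and the same noise at every signal. Errors, background calls and outlier marks were those of the vehicle array, so differences in detection between arrays were not tested. Python 3.11.15, pandas 2.3.3 and scipy 1.17.1 were used.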

Additional observations from a re-analysis of the deposited data

How the results depend on the processing

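Under all 12 alternatives 0 members were 1.5-fold or 2-fold higher or lower, and 38 to 40 members were measured. Of 467 member values under alternatives, 0 moved by the scanner error or more, and they ran from -0.20 to 0.40. Averaging over probes in place of the brightest turned the sign of Mapk4 (0.02 in place of -0.15) and Map3k14 (-0.03 in place of 0.13), which were among the larger member differences, and of Map2k4 (-0.02 in place of 0.08), Mapk10 (0.05 in place of -0.04), Mapk9 (-0.08 in place of 0.01) and Mapk6 (-0.02 in place of 0.01). The member median ran from -0.03 to 0.01, that of the Map4k tier from 0.08 to 0.13, and that of all genes from -0.03 to 0.01. The phosphatase median of 0.78 became 0.61 with normexp and 0.61 with no background correction; the cause was not tested. Of 739 values of named genes, 8 moved by their error or more, those of Egr1, Fos, Dusp5 and Rasgrp2 under these 2 settings, and 0 changed sign among genes called at 2-fold. Signal over background limits the dim members Map3k8, Map3k12 and Mapk15. No paired analysis was possible because there is 1 array per group, and leaving out a replicate was not possible for the same reason.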

Other observations

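Some kinases of the MAP3 tier stand on the array under other names that the name pattern does not take. Through its RefSeq accession the probe named B230120H23Rik belongs to Map3k20, the ribosome stress kinase ZAK, with a scaled signal of 80.0 in the GnRH array and 78.9 in the vehicle array (log2 difference 0.02 ± 0.22). The probes named BC021891 (Map3k21) and Ysk4 (Map3k19) were not measured by the rule used for the other genes.

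Of the 69 member probes, 5 were well above background on neither array and 1 on the GnRH array only. The 5 were a probe each of Mapk8, Map2k6 and Map3k13 and 2 probes of Map3k9; each of these genes was measured through another probe.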
